A study of Sus scrofa with 12 samples.

Results

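Secreted WNT ligands, their cell surface receptors and their secreted antagonists were followed in the testes of boars of 2 breeds at 2 ages. The genes were taken by symbol from the table of coding genes. They are those named WNT, FZD, SFRP or DKK with a number (and, for ligands, a letter A or B where there is one), together with FRZB, WIF1, LRP5 and LRP6. This gave 41 of 21674 genes, with 19 ligands, 10 Frizzled receptors, 2 LRP co-receptors, 5 secreted Frizzled-related proteins (SFRPs, FRZB included), 4 Dickkopf proteins and WIF1. The 12 libraries were made from testis RNA of 30-day-old (Ha) and 120-day-old (Hb) Hezuo boars and of 30-day-old (La) and 120-day-old (Lb) Landrace boars, with 3 libraries in each group. The study describes Hezuo (HZ) pigs as small animals of the plateau that mature early, and it set Landrace (LC) beside them for comparison. By the study's methods the testes were removed by castration, 3 boars gave the samples of each group, and both breeds were kept in the same surroundings. Each library holds RNA of the whole testis, so its somatic and germ cells are mixed.

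A WNT ligand binds a Frizzled receptor together with LRP5 or LRP6, which keeps beta-catenin from being broken down and lets it act with TCF and LEF factors on target genes. Some ligands, such as WNT5A, also act through branches without beta-catenin, among them planar cell polarity. SFRPs and WIF1 bind ligands outside the cell and Dickkopf proteins bind the LRP co-receptors, and in the testis WNT4 is known from gonad formation and WNT5A from the support of spermatogonia.

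The estimated counts of a library came to 17165519 in Hb3 at the lowest and 23758931 in Ha1 at the highest. Values of single genes are given as CPM (counts scaled to a common total, with TMM factors over the 12 libraries), and levels of different genes are compared in FPKM, which takes the length of the transcript into account. Tests were made with edgeR (quasi-likelihood) over all genes that passed a filter on low counts, and log2 fold changes, each with its standard error (SE), are 120 over 30 days within a breed (Ha vs Hb for Hezuo, La vs Lb for Landrace) and Landrace over Hezuo at 1 age (Ha vs La at 30 days, Hb vs Lb at 120 days). The interaction is the change with age in Landrace less that in Hezuo. Hb1 stood apart from the other Hb libraries in its Leydig markers, which summed to 4066, 331 and 268 CPM in Hb1 to Hb3, so results that rest on Hb1 are given with and without it. Over all genes Hb2 was the furthest from the others of its group, with a chi-square of the counts per degree of freedom of 95 between Hb1 and Hb2 and 59.7 between Hb2 and Hb3, against 41.7 between Hb1 and Hb3 and 17.8 to 46.1 for pairs in the other groups. Where the call of a member, or of a pathway gene whose test is given, changed when 1 library was left out, that library is named with the log2 value found without it. Each such fit also has fewer libraries to test with, so a lost call does not by itself point to the library left out. Chromosome positions are those of Sscrofa11.1. A gene was called at an adjusted p under 0.05 with an absolute log2 fold change over 1. An exact permutation test of 3 libraries against 3 cannot go below p = 0.1, so every adjusted p rests on the spread that edgeR models across genes.

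Between the ages, 21 of the 34 members that passed the filter were called in Hezuo, against 51.4% of all genes tested. Of these, 5 rose and 16 fell, where 28.2% of all genes rose and 23.2% fell. In Landrace, 19 of 35 were called, against 47.6% of all genes. There 6 rose and 13 fell, with 27.5% and 20.1% of all genes doing so. The shares called, 61.8% and 54.3%, were thus not far from those of all genes. By role, the ligands had 3 up and 5 down of 14 in Hezuo and 5 up and 4 down of 16 in Landrace, the Frizzled receptors 2 up and 6 down of 10 in Hezuo and 1 up and 5 down of 10 in Landrace, and the SFRP genes 0 up and 4 down of 5 in Hezuo and 0 up and 3 down of 5 in Landrace. Decreases outnumbered increases among the receptors and SFRP genes in both breeds, and the difference in direction from all genes was not tested. The ligand counts of the breeds were not compared by a test. Of the ligands, WNT16 was not tested in Hezuo, and the Landrace call of WNT3A was lost under several alternatives. The median log2 fold change was -1.10 over the members and -0.02 over all genes in Hezuo, and -0.68 and 0.01 in Landrace. Scaling by library size alone moved the median of all genes to -0.32 and -0.16. All genes called in Hezuo then split into 3978 up and 5039 down, against 4666 and 3844 with TMM, and those in Landrace into 4159 up and 4040 down, against 4574 and 3352. With library size alone, 5 members rose and 18 fell in Hezuo and 5 rose and 14 fell in Landrace. Called in both breeds were 16 members (76.2% of those in Hezuo and 84.2% of those in Landrace), 4 higher and 12 lower at 120 days, and each in the same direction in both. Of all genes called, 6307 were called in both (74.1% and 79.6%), so the overlap of the members was near that of all genes. Of these 6307 genes, 6286 went in the same direction in both breeds, 3794 higher and 2492 lower at 120 days. With limma on log2(FPKM + 1) calls were not made for FRZB, FZD3, WNT2, WNT3A, WNT4, WNT8A and WNT8B in Hezuo and for WNT3A, WNT4, WNT7A, WNT8A, WNT9B and WNT16 in Landrace. A gene under 1 FPKM in each library compared cannot reach a log2 change of 1 on that scale. This held for all of these but FRZB and FZD3, which were at -0.99 and 0.93 in Hezuo.

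Between the breeds, 3 of 32 members were called at 30 days (Ha vs La), against 7.62% of all genes, 3.6% higher and 4.01% lower in La. WNT6 was higher in La, and WNT9B and WIF1 were lower. With limma on log2(FPKM + 1) WNT9B was at -0.28. It was under 1 FPKM in each library, so it could not reach the fold threshold on that scale. At 120 days (Hb vs Lb) 6 of 31 were called, against 3.85% of all genes, 2.65% higher and 1.2% lower in Lb. WNT2B, FZD2, FZD5, SFRP1 and SFRP4 were higher in Lb and DKK2 was lower. The number of calls at 120 days changed with the library left out: edgeR called 0 members without Hb3, Lb1 or Lb2, 1 without Lb3, 4 without Hb2 and 8 without Hb1. The log2 values of the lost calls are given with each gene below. Of all genes, 628 were called with all libraries, 622 without Hb1, 1029 without Hb2, 119 without Hb3, 182 without Lb1, 97 without Lb2 and 139 without Lb3. At an unadjusted p under 0.05 the members at 120 days came to 15 with all libraries and to 15, 14 and 14 without Hb3, Lb1 and Lb2. The share of all genes at that unadjusted p is not given here, so these counts are not compared with it. DESeq2 called 11 members in this comparison with all libraries, with 1224 of all genes, and limma on log2(FPKM + 1) called 3, without DKK2, FZD5 and WNT2B, with 496 of all genes. The interaction of breed and age was called for 4 of 37 members, against 5.14% of all genes, 3.51% larger and 1.62% smaller in Landrace. These were WNT2, FZD2, FZD7 and SFRP4. Under scaling by library size alone all genes called in the interaction split into 882 larger and 199 smaller, against 609 and 281 with TMM, and 7 members were called (6 larger, 1 smaller). Without La1 the interaction was called for 2 members (FZD7 and WNT2) and without Hb1 for 8. Of all genes, the interaction was called for 890 with all libraries, and without 1 library for 437 (Ha1) at the fewest and 1242 (Hb2) at the most, with 577 without La1 and 987 without Hb1. The interactions of FZD7 and WNT2 were not called by limma on log2(FPKM + 1), with log2 values of -0.99 and 0.55.

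**Figure D1:**
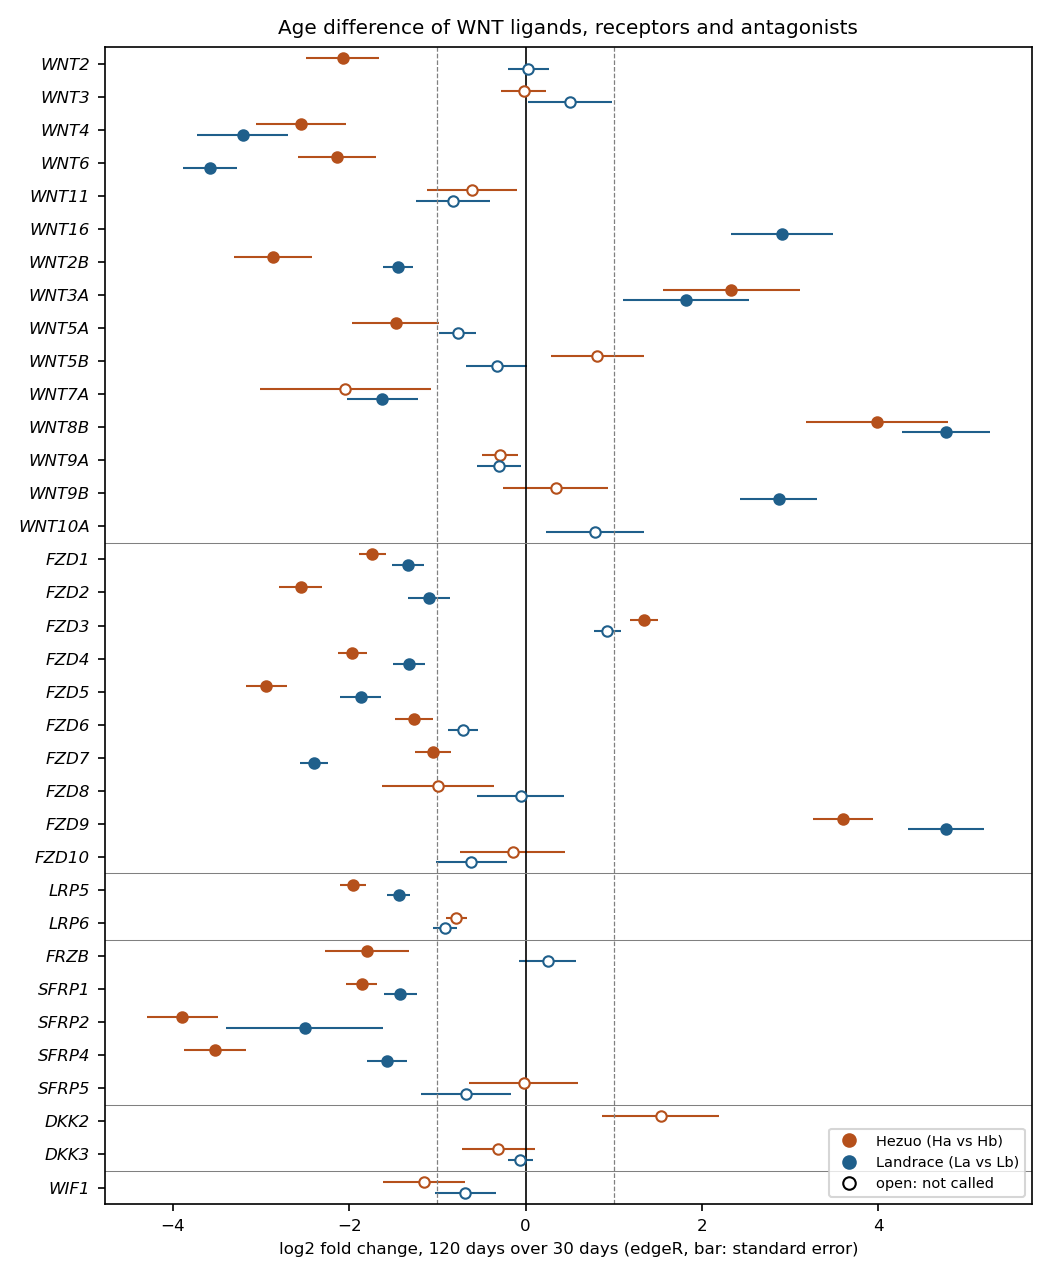
Log2 fold change of each member tested between 30 and 120 days, with its standard error, for Hezuo (brown) and Landrace (blue), ordered by role from ligands at the top to WIF1 at the bottom. Filled points were called, dashed lines mark a log2 fold change of 1 in either direction, and WNT8A is not drawn because its 30-day groups were at 2 counts each, while FZD9 (3.60 and 4.76) and WNT8B (3.99 and 4.76) lie furthest to the right.

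Ligand transcripts were low beside those of the receptors. The 19 ligands together summed to 17.8, 16.4 and 20.1 FPKM in Ha1 to Ha3, 7.64, 6.28 and 7.05 in Hb1 to Hb3, 26, 25.4 and 26.6 in La1 to La3, and 11, 10.8 and 11.8 in Lb1 to Lb3. The 30-day libraries lay above the 120-day libraries of their breed, and Landrace lay above Hezuo at each age without overlap. FPKM carries a shift of its own between the ages, with a median change over all genes of -0.44 in Hezuo and -0.25 in Landrace on the log2(FPKM + 0.1) scale. By mean FPKM over the 12 libraries the order was WNT6 (3.62), WNT5A (3.36), WNT9A (2.43) and WNT2B (2.42), and every other ligand was under 1. The order differed by group, with WNT6 holding 37.4 ± 5.48% of the summed ligand FPKM in La and 5.88 ± 2.42% in Lb (SD, n = 3). In Hb the highest share was that of WNT9A, at 26.3 ± 7.38%, which did not differ from WNT5A (16.6 ± 10.6%) beyond their spread.

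WNT6 (NCBI gene 100622044, chromosome 15, 120901471 to 120917359), a ligand known from epithelial development, was at 6.22, 3.9 and 9.51 CPM in Ha1 to Ha3, 0.986, 2.0 and 1.45 in Hb1 to Hb3, 21.8, 17.1 and 16.7 in La1 to La3, and 1.06, 2.26 and 1.28 in Lb1 to Lb3. La was the highest group with no overlap, and both 120-day groups were low and overlapped each other. At 30 days its log2 fold change was 1.5 (edgeR, SE 0.30, adjusted p = 0.0121). With age it fell by 2.14 in Hezuo on the log2 scale (edgeR, SE 0.44, adjusted p = 0.00367) and by 3.57 in Landrace (edgeR, SE 0.31, adjusted p = 1.58e-05). At 120 days its value was 0.08, and it was not called. The interaction for WNT6 was -1.45 (edgeR, SE 0.54, adjusted p = 0.126) and was not called.

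WNT2B (NCBI gene 100520560, chromosome 4, 107906141 to 107923343), which can act through beta-catenin and is made by stromal cells in several organs, was at 17.1, 12.5 and 14.3 CPM in Ha1 to Ha3, 3.48, 1.49 and 1.06 in Hb1 to Hb3, 20.7, 25.6 and 26.5 in La1 to La3, and 9.53, 8.61 and 8.26 in Lb1 to Lb3. It was low in all Hb libraries, with Hb1 above Hb2 and Hb3, and Lb lay between Hb and the 30-day groups without overlap. The gene fell with age, with a log2 fold change of -2.86 (edgeR, SE 0.44, adjusted p = 0.000941) in Hezuo and -1.45 (edgeR, SE 0.17, adjusted p = 8.77e-05) in Landrace. At 120 days it was higher in Landrace, at 2.18 (edgeR, SE 0.44, adjusted p = 0.0339). This call was not made without Hb3 (1.89), Lb1 (2.13), Lb2 (2.21) or Lb3 (2.21), and the direction was the same each time. At 30 days it was at 0.72 (edgeR, SE 0.16, adjusted p = 0.0169), under the fold threshold. Its interaction of 1.40 (edgeR, SE 0.45, adjusted p = 0.0842) was called without Hb1 (2.07) and not with all libraries.

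WNT2 (NCBI gene 100516839, chromosome 18, 28945825 to 28993969), a relative of WNT2B, was at 5.64, 4.58 and 6.48 CPM in Ha1 to Ha3, 2.09, 0.882 and 0.989 in Hb1 to Hb3, 3.61, 3.62 and 4.17 in La1 to La3, and 4.07, 3.77 and 3.7 in Lb1 to Lb3. The Hb libraries were the low ones, with Hb1 the highest of them, and La and Lb overlapped. In Hezuo it fell, with a log2 fold change of -2.07 (edgeR, SE 0.42, adjusted p = 0.00322), while in Landrace the value was 0.03 (edgeR, SE 0.23, adjusted p = 0.909) and the groups overlapped. The interaction was called at 2.09 (edgeR, SE 0.45, adjusted p = 0.021), and it was called without each library in turn. At 120 days the log2 fold change of 1.59 (edgeR, SE 0.41, adjusted p = 0.0652) did not pass, though it did without Hb1 (2.06). The sum of peritubular and stromal markers was also lowest in Hb, and its part in WNT2 and WNT2B was not tested.

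WNT9B (NCBI gene 100738655, chromosome 12, 17709046 to 17733434), a ligand of kidney and duct development, was at 1.5, 1.2 and 2.48 CPM in Ha1 to Ha3, 1.91, 0.836 and 3.89 in Hb1 to Hb3, 0.467, 0.251 and 0.318 in La1 to La3, and 2.96, 1.65 and 3.03 in Lb1 to Lb3. The La libraries were low and apart from all others, and Ha, Hb and Lb overlapped. The difference at 30 days was -2.30 (edgeR, SE 0.43, adjusted p = 0.0101) on the log2 scale. WNT9B rose with age in Landrace, at 2.87 (edgeR, SE 0.43, adjusted p = 0.000447), and in Hezuo it stood at 0.34 (edgeR, SE 0.59, adjusted p = 0.625). The interaction of 2.51 (edgeR, SE 0.77, adjusted p = 0.0728) did not pass, so the breeds are not shown to differ in their change with age; it was called without Hb3 (3.25). The counts behind the La values were 11, 5 and 8.

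Of the ligands called between the ages alone, WNT4 fell in both breeds, WNT5A in Hezuo and WNT7A in Landrace. WNT4, needed for the female gonad and expressed in stroma, was at 2.37 ± 0.898 CPM in Ha, 0.408 ± 0.155 in Hb, 2.42 ± 0.323 in La and 0.253 ± 0.193 in Lb (SD, n = 3). All 30-day libraries were above all 120-day libraries, and the log2 fold change was -2.55 (edgeR, SE 0.51, adjusted p = 0.00322) in Hezuo and -3.21 (edgeR, SE 0.51, adjusted p = 0.000604) in Landrace. Leaving out 1 library gave WNT4 values from -2.80 to -2.26 in Hezuo and from -3.99 to -2.86 in Landrace, each of them called. WNT5A, a ligand of the branches without beta-catenin, was at 39.8 ± 0.745 CPM in Ha, 14.3 ± 11.2 in Hb, 41.7 ± 3.8 in La and 24.3 ± 7.16 in Lb (SD, n = 3). Its Hb libraries were spread, at 27.1, 9.47 and 6.4 CPM, with Hb1 the highest. In Hezuo it fell, with a log2 fold change of -1.47 (edgeR, SE 0.49, adjusted p = 0.0302), a call not made without Ha1 (-1.49), Ha2 (-1.49), Ha3 (-1.46), Hb2 (-1.29) or Hb3 (-1.12); without Hb1 the value was -2.32. In Landrace WNT5A stood at -0.77 (edgeR, SE 0.21, adjusted p = 0.0113), under the fold threshold, and the interaction of 0.69 (edgeR, SE 0.58, adjusted p = 0.501) was not called. Without Hb1, both the interaction (1.56) and the breed difference at 120 days (1.62, against 0.81 with all libraries) were called. WNT7A, known from the female reproductive tract, was at 1.32 ± 0.936 CPM in Ha, 0.305 ± 0.327 in Hb, 1.12 ± 0.0971 in La and 0.355 ± 0.107 in Lb (SD, n = 3). It was called in Landrace at -1.62 (edgeR, SE 0.40, adjusted p = 0.00668) without overlap, and in Hezuo, where the groups overlapped, the value of -2.04 (edgeR, SE 0.97, adjusted p = 0.095) did not pass except without Hb2 (-3.35). Its interaction was 0.40 (edgeR, SE 1.12, adjusted p = 0.87), and with all 12 libraries in 1 fit the call in Landrace was not made (-1.64).

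A separate group of ligands was higher at 120 days. WNT8A, an embryonic ligand, had 2 counts in the 3 Ha libraries together and 88 in Hb, a ratio of 62.6 (95% exact interval 16.8 to 525, counting error only). In Landrace the counts were 2 in La and 127 in Lb, a ratio of 69.9 (19 to 584). It was thus nearly undetected at 30 days in both breeds, and it was called in both (edgeR adjusted p = 0.000333 and 0.000292). WNT8B, its paralogue, was at 0.232 ± 0.265 CPM in Ha, 3.78 ± 1.71 in Hb, 0.29 ± 0.238 in La and 8.19 ± 1.44 in Lb (SD, n = 3). The ages did not overlap in either breed, with a log2 fold change of 3.99 (edgeR, SE 0.80, adjusted p = 0.00329) in Hezuo and 4.76 (edgeR, SE 0.50, adjusted p = 5.31e-05) in Landrace. Leaving out 1 library gave values from 3.57 to 5.47 in Hezuo and from 4.39 to 5.64 in Landrace, each of them called. In Lb WNT8B held 13.6 ± 2.58% of the ligand FPKM (SD, n = 3), against 0.253 ± 0.211% in La. The spermatid and spermatocyte markers rose between the same groups. Between the breeds at 120 days WNT8B, which was not called there, had the higher mean in Lb. The marker sums were lower in Lb, at 3600 against 6848 CPM for spermatids and 494 against 703 for spermatocytes. The part of these cells in the ligand values was not tested.

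WNT3A, a strong activator of beta-catenin, was low throughout, at 0.336 ± 0.212 CPM in Ha, 1.73 ± 1.11 in Hb, 0.39 ± 0.324 in La and 1.36 ± 0.535 in Lb (SD, n = 3). It was called as higher at 120 days in both breeds, at 2.33 (edgeR, SE 0.78, adjusted p = 0.0293) in Hezuo, where Hb2 overlapped with Ha3, and at 1.82 (edgeR, SE 0.72, adjusted p = 0.0491) in Landrace. With limma on log2(FPKM + 0.1) the call in Hezuo was not made, nor that in Landrace by DESeq2, with library size alone, without a filter, with all 12 libraries in 1 fit or with replicate number as a block. Both calls were also not made in most fits without 1 library. In Hezuo this held without Ha1 (2.35), Ha2 (1.93), Hb1 (1.97) or Hb3 (2.11). In Landrace it held without La2 (1.92), La3 (1.26), Lb1 (1.48), Lb2 (2.04) or Lb3 (1.88). WNT16, known from bone, was at 0.263 ± 0.12 CPM in Ha, 0.304 ± 0.39 in Hb, 0.298 ± 0.191 in La and 2.23 ± 0.829 in Lb (SD, n = 3). The Lb libraries were above all others, and in Landrace it rose, with a log2 fold change of 2.91 (edgeR, SE 0.58, adjusted p = 0.00207), while in Hezuo it did not pass the filter. Its interaction of 2.69 (edgeR, SE 1.16, adjusted p = 0.181) was not called. Without Hb1 the interaction (4.54) and the difference at 120 days (4.70) were called, with 2 and 1 counts left in Hb2 and Hb3.

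The remaining ligands were not called in any comparison with all libraries. WNT9A, expressed in developing joints and bone, was at 9.18 to 17.7 CPM over the 12 libraries, with a log2 fold change of -0.30 in Hezuo and -0.30 in Landrace. WNT3, an activator of beta-catenin beside WNT3A, ranged over 1.02 to 4.7 CPM and was at -1.08 (edgeR, SE 0.36, adjusted p = 0.0662) at 30 days. WNT5B, a paralogue of WNT5A, ranged over 0.723 to 3.23 CPM, WNT11, a ligand of cell movement, over 0.37 to 1.41 and WNT10A, known from skin and teeth, over 0.12 to 0.879, the last called in Hezuo without Hb2 (2.41). WNT10B (0 to 1.91 CPM) passed the filter in the fit of all 12 libraries alone. Its gene (chromosome 5, 14997377 to 15013928) overlaps that of WNT1 (15010607 to 15015007) by 3322 bases, so their counts are uncertain. WNT1 and WNT7B had no more than 3 counts in any library and were not tested.

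Frizzled receptors and their LRP partners were measured at higher levels than the ligands. The 10 Frizzled genes summed to 58, 57.6 and 58.4 FPKM in Ha1 to Ha3, 26.5, 26.2 and 30.9 in Hb1 to Hb3, 56.3, 60.9 and 62.3 in La1 to La3, and 28.5, 28.5 and 29.7 in Lb1 to Lb3. The sums of the breeds overlapped at each age, with 30 days above 120 days, and which Frizzled made up the sum differed between the ages. In Ha the highest were FZD2 (23.7 ± 3.7% of the summed Frizzled FPKM) and FZD4 (22.2 ± 2.85%), which did not differ beyond their spread (SD, n = 3). In Hb FZD3 alone held 57.5 ± 5.63%, and in Lb 36 ± 7.67%, against 13.6 ± 0.784% in Ha and 9.56 ± 0.343% in La.

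**Figure D2:**
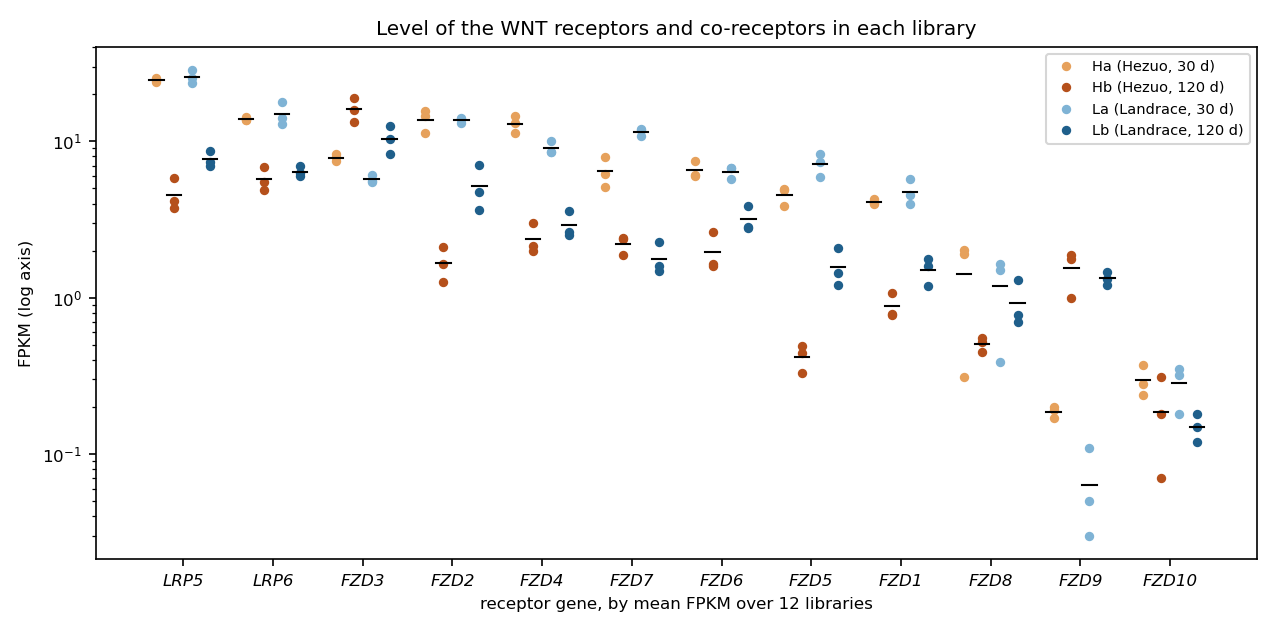
FPKM (log axis) of the 10 Frizzled genes and of LRP5 and LRP6 in each of the 12 libraries, with points coloured by group and a black line at each group mean. FZD3 and FZD9 are higher in the 120-day groups, and FZD3 has the highest mean of these genes in Hb (16.1).

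FZD3, a receptor of planar polarity in neurons, was at 61.3 ± 2.49 CPM in Ha, 155 ± 27.8 in Hb, 51.4 ± 4.17 in La and 96.8 ± 18.7 in Lb (SD, n = 3). The ages did not overlap in either breed, and it rose in Hezuo at 1.34 (edgeR, SE 0.16, adjusted p = 0.00025). In Landrace the log2 fold change of 0.93 (edgeR, SE 0.15, adjusted p = 0.000722) was under the fold threshold except without Lb2 (1.04), and the interaction of -0.43 (edgeR, SE 0.22, adjusted p = 0.269) was not called. FZD9, a receptor studied in bone and neurons, was at 1.51 ± 0.125 CPM in Ha, 18.3 ± 6.52 in Hb, 0.525 ± 0.379 in La and 13.8 ± 1.33 in Lb (SD, n = 3). It was near the bottom at 30 days and rose in both breeds without overlap, at 3.60 (edgeR, SE 0.34, adjusted p = 9.01e-05) in Hezuo and 4.76 (edgeR, SE 0.43, adjusted p = 2.17e-05) in Landrace. Between the breeds FZD9 was called at 30 days without La2 (-2.26) and not with all libraries. FZD3 and FZD9 moved in the direction of the spermatocyte and spermatid markers, whose part was not tested.

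FZD2 (NCBI gene 100337669, chromosome 12, 18740417 to 18742301), a receptor of both branches, was at 32.2, 25 and 34.8 CPM in Ha1 to Ha3, 4.23, 4.78 and 6.73 in Hb1 to Hb3, 30.2, 32.2 and 31.3 in La1 to La3, and 10.5, 20.5 and 12.4 in Lb1 to Lb3. The 30-day groups overlapped, Hb was the lowest, and Lb lay in between with Lb2 well above Lb1 and Lb3. The log2 fold change was -2.55 (edgeR, SE 0.24, adjusted p = 9.11e-05) in Hezuo and -1.09 (edgeR, SE 0.24, adjusted p = 0.00322) in Landrace. The smaller decrease in Landrace was called in the interaction, at 1.44 (edgeR, SE 0.35, adjusted p = 0.0342), though not without Ha1 (1.45), Ha3 (1.38), La1 (1.42), La2 (1.5), La3 (1.49) or Lb2 (1.11). In Landrace the call itself was not made without Lb1 (-0.90), which fell under the fold threshold. Landrace was higher at 120 days, at 1.51 (edgeR, SE 0.32, adjusted p = 0.0409), a call not made without Hb1 (1.36), Hb2 (1.47), Hb3 (1.72), Lb1 (1.70), Lb2 (1.19) or Lb3 (1.60).

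FZD5 (NCBI gene 100519058, chromosome 15, 110913990 to 110921388), a receptor with high affinity for several ligands, was at 30.1, 29.3 and 23.3 CPM in Ha1 to Ha3, 4.46, 3.44 and 2.84 in Hb1 to Hb3, 36.8, 51.1 and 45.5 in La1 to La3, and 16.4, 9.6 and 10.1 in Lb1 to Lb3. Landrace was above Hezuo at both ages and 30 days above 120 days, and none of the 4 groups overlapped. It fell, with a log2 fold change of -2.94 (edgeR, SE 0.23, adjusted p = 3.77e-05) in Hezuo and -1.87 (edgeR, SE 0.23, adjusted p = 0.000143) in Landrace. At 120 days it was 1.79 (edgeR, SE 0.31, adjusted p = 0.0235), a call not made without Hb3 (1.66), Lb1 (1.51), Lb2 (1.94) or Lb3 (1.89). At 30 days it was at 0.69 (edgeR, SE 0.16, adjusted p = 0.019), under the fold threshold, and the interaction of 1.06 (edgeR, SE 0.34, adjusted p = 0.0793) was called without Hb1 (1.27) alone.

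FZD7 (NCBI gene 100513691, chromosome 15, 105644164 to 105648860), known from stem cells of several tissues, was at 28.2, 34.4 and 44.5 CPM in Ha1 to Ha3, 15.6, 17.4 and 18.7 in Hb1 to Hb3, 62, 67.3 and 67.4 in La1 to La3, and 10.7, 11.5 and 14.7 in Lb1 to Lb3. La was the highest group, apart from Ha, and at 120 days the order was turned, with each Lb library under each Hb library. It fell by 1.05 on the log2 scale in Hezuo (edgeR, SE 0.20, adjusted p = 0.00275) and by 2.40 in Landrace (edgeR, SE 0.16, adjusted p = 3.47e-06). The interaction was called at -1.36 (edgeR, SE 0.25, adjusted p = 0.0116), and was called without each library in turn. In Hezuo the call was not made without Ha3 (-0.87) or Hb1 (-0.98). Among the members called in the interaction, FZD7 alone had the larger decrease in Landrace. At 30 days its log2 fold change was 0.88 (edgeR, SE 0.16, adjusted p = 0.00856), under the fold threshold, and it was called without Ha3 (1.06).

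FZD1, FZD4 and FZD6 fell with age. FZD1, a receptor for WNT3A among others, was at 46 ± 1.6 CPM in Ha, 13.8 ± 1.68 in Hb, 54.3 ± 9.87 in La and 21.3 ± 3.52 in Lb (SD, n = 3). Its change was -1.74 (edgeR, SE 0.15, adjusted p = 5.91e-05) on the log2 scale in Hezuo and -1.33 (edgeR, SE 0.19, adjusted p = 0.000272) in Landrace. FZD4, a receptor of vessel growth, was at 66.3 ± 8.14 CPM in Ha, 17 ± 2.64 in Hb, 47.7 ± 4.76 in La and 19 ± 4.59 in Lb (SD, n = 3), with -1.96 (edgeR, SE 0.17, adjusted p = 5.64e-05) in Hezuo and -1.32 (edgeR, SE 0.18, adjusted p = 0.000255) in Landrace. In both genes all 30-day libraries lay above all 120-day libraries. FZD6, another planar polarity receptor, was at 19.6 ± 2.44 CPM in Ha, 8.11 ± 1.87 in Hb, 19.6 ± 1.74 in La and 11.8 ± 1.51 in Lb (SD, n = 3). It was called in Hezuo at -1.27 (edgeR, SE 0.22, adjusted p = 0.00148), and in Landrace the value of -0.71 (edgeR, SE 0.17, adjusted p = 0.00565) was under the fold threshold, with an interaction of 0.54 (edgeR, SE 0.27, adjusted p = 0.242) that was not called. The endothelial list was also lower at 120 days in both breeds, and its part in FZD4 was not tested. FZD8 (1.04 to 6.63 CPM), a receptor for WNT3A and WNT9B, and FZD10 (0.325 to 1.68 CPM), expressed mainly in embryos, were not called in any comparison with all libraries. FZD8 was uneven within groups, with Ha1 at 1.04 CPM beside 6.63 and 6.37, and La2 at 1.36 beside 5.18 and 5.52, and it was called in Hezuo without Ha1 (-1.47).

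LRP5 and LRP6, the co-receptors of the beta-catenin branch, were among the 4 most abundant members by mean FPKM over the 12 libraries, at 15.7 and 10.2. By group, LRP6 ranked 5 in Lb, and FZD3 ranked 2 in both Hb and Lb. LRP5 was at 143, 139.9 and 150.5 CPM in Ha1 to Ha3, 32.6, 44.8 and 34.3 in Hb1 to Hb3, 142, 169 and 150.2 in La1 to La3, and 52.5, 65.9 and 49.9 in Lb1 to Lb3. The ages were apart and the breeds overlapped at 30 days, with Lb above Hb at 120 days. It fell, with a log2 fold change of -1.96 (edgeR, SE 0.15, adjusted p = 3.35e-05) in Hezuo and -1.44 (edgeR, SE 0.13, adjusted p = 2.53e-05) in Landrace. LRP6 was at 154, 162 and 154 CPM in Ha1 to Ha3, 82.7, 101 and 88.7 in Hb1 to Hb3, 150.3, 162 and 204 in La1 to La3, and 91.5, 88 and 92 in Lb1 to Lb3. It too was lower in every 120-day library, at -0.79 (edgeR, SE 0.12, adjusted p = 0.000773) in Hezuo and -0.91 (edgeR, SE 0.13, adjusted p = 0.00035) in Landrace, under the fold threshold in both except without La1 (-1.01). At 30 days LRP5 exceeded LRP6 in FPKM in each library (24.7 against 13.9 at the means of Ha). In Hb the order was reversed in each library, with LRP5 at 3.72, 5.84 and 4.14 and LRP6 at 4.86, 6.88 and 5.53 FPKM in Hb1 to Hb3, while in Lb LRP5 was again above LRP6 in each. The difference between the genes was not tested.

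The secreted antagonists were led by SFRP1 and DKK3. The 5 SFRP genes summed to 33.3, 31.3 and 26.8 FPKM in Ha1 to Ha3, 3.82, 5.41 and 3.76 in Hb1 to Hb3, 32.5, 41.7 and 44.6 in La1 to La3, and 9.67, 14.1 and 12.5 in Lb1 to Lb3. They were far lower at 120 days, and lower in Hb than in Lb without overlap. SFRP1, which binds ligands and blocks them from Frizzled, made up 51.1 ± 6.66% of the sum in Ha and 70.3 ± 3.5% in Hb, and 60.2 ± 1.47% in La and 59.1 ± 5.14% in Lb (SD, n = 3).

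SFRP1 (NCBI gene 100621622, chromosome 17, 10436414 to 10489773) was at 72.8, 87.8 and 73 CPM in Ha1 to Ha3, 20.5, 26 and 17.9 in Hb1 to Hb3, 103, 126 and 138 in La1 to La3, and 34.3, 54.2 and 47.4 in Lb1 to Lb3. Each group was apart from the others, in the order Hb, Lb, Ha and La. The log2 fold change was -1.86 (edgeR, SE 0.18, adjusted p = 8.65e-05) in Hezuo and -1.42 (edgeR, SE 0.19, adjusted p = 0.000206) in Landrace. At 120 days it was higher in Landrace at 1.12 (edgeR, SE 0.23, adjusted p = 0.0387), a call not made without Hb1 (1.07), Hb3 (1.0), Lb1 (1.29), Lb2 (0.98) or Lb3 (1.07). At 30 days it was 0.65 (edgeR, SE 0.13, adjusted p = 0.0129), under the fold threshold, and the interaction of 0.42 (edgeR, SE 0.27, adjusted p = 0.37) was not called. SFRP1 and WNT2B were also measured by qRT-PCR in the study, and the primers of that assay, which were not placed on a transcript here, are printed so that it can be repeated, written 5′ to 3′:
SFRP1 forward: cgagtttgccctgaggatga
SFRP1 reverse: gaagtggtggctgaggttgt
WNT2B forward: ccttactccaccttcaacct
WNT2B reverse: actctccctgctaacctcca

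SFRP4 (NCBI gene 100145890, chromosome 9, 108404314 to 108414335), known from endometrium and bone, was at 28.4, 18.4 and 13 CPM in Ha1 to Ha3, 2.09, 1.53 and 1.58 in Hb1 to Hb3, 20.8, 26.8 and 24.8 in La1 to La3, and 8.93, 9.65 and 5.59 in Lb1 to Lb3. The 30-day groups overlapped, while at 120 days each Lb library was above each Hb library. It fell, with a log2 fold change of -3.52 (edgeR, SE 0.35, adjusted p = 0.00011) in Hezuo and -1.57 (edgeR, SE 0.22, adjusted p = 0.000323) in Landrace. The decrease was larger in Hezuo, with an interaction of 1.94 (edgeR, SE 0.42, adjusted p = 0.0218), which was not called without La1 (1.84). At 120 days the log2 fold change was 2.26 (edgeR, SE 0.33, adjusted p = 0.0154), a call not made without Hb3 (2.2), Lb1 (2.18) or Lb2 (2.12). The stromal markers COL1A1 (9.8, 4.88 and 6.13 CPM in Hb and 168, 156 and 140.2 in Lb) and PDGFRB (5.68, 20.8 and 9.89 and 55.9, 88.4 and 68.6) were also lower in Hb. Of the 10 peritubular and stromal markers, 5 were called at 120 days and 5 were not. The call of PDGFRB was not made without Hb3 (2.44), Lb1 (2.72), Lb2 (2.40) or Lb3 (2.58). The part of stromal cells in SFRP1, SFRP4 and FZD2 was not tested.

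SFRP2, another ligand-binding antagonist of stroma, was at 7.81 ± 1.96 CPM in Ha, 0.512 ± 0.211 in Hb, 6.07 ± 2.51 in La and 1.06 ± 1.49 in Lb (SD, n = 3). In Hezuo it fell, with a log2 fold change of -3.89 (edgeR, SE 0.40, adjusted p = 0.000135). In Landrace, where Lb2 stood at 2.78 CPM beside 0.185 and 0.205 in Lb1 and Lb3, it was -2.50 (edgeR, SE 0.89, adjusted p = 0.0329), a call not made without La2 (-2.45), La3 (-2.22), Lb1 (-2.0) or Lb3 (-2.03); without Lb2 the value was -4.91. FRZB, known from cartilage, was at 4.57 ± 0.499 CPM in Ha, 1.32 ± 0.804 in Hb, 3.48 ± 0.694 in La and 4.09 ± 1.34 in Lb (SD, n = 3). It fell in Hezuo at -1.80 (edgeR, SE 0.47, adjusted p = 0.0115), and in Landrace the groups overlapped at 0.25 (edgeR, SE 0.32, adjusted p = 0.505). The interaction of 2.03 (edgeR, SE 0.58, adjusted p = 0.0554) did not pass, and was called without Hb3 (2.59). SFRP5, a paralogue of SFRP1, was low, at 0.155 to 0.955 CPM, and was not called in any comparison.

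DKK3, a divergent Dickkopf whose role as a WNT antagonist is less settled, had the highest mean FPKM of the 41 genes (56.3) and was first in each group. It was at 112, 119 and 299 CPM in Ha1 to Ha3, 106, 133 and 190.5 in Hb1 to Hb3, 266, 190 and 209.6 in La1 to La3, and 213, 224 and 195 in Lb1 to Lb3. Ha3 stood far above Ha1 and Ha2, and the groups overlapped except that each Lb library was above each Hb library. It was not called, with log2 fold changes of -0.31 in Hezuo, -0.06 in Landrace, 0.33 at 30 days and 0.60 at 120 days.

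DKK2 (NCBI gene 100519672, chromosome 8, 114862056 to 114974327), a ligand of LRP5 and LRP6 that can block or weakly activate them, was at 0.422, 1.41 and 0.777 CPM in Ha1 to Ha3, 0.812, 3.76 and 2.97 in Hb1 to Hb3, 0.212, 0.352 and 0.755 in La1 to La3, and 0.231, 0.377 and 0.205 in Lb1 to Lb3. Each Hb library was above each Lb library, with Hb1 under Hb2 and Hb3, and the Lb libraries held 4 to 8 counts. At 120 days it was lower in Landrace, at -3.16 (edgeR, SE 0.68, adjusted p = 0.0414). This call was not made without Hb2 (-2.71), Hb3 (-3.03), Lb1 (-3.05), Lb2 (-3.45) or Lb3 (-3.01), and without Hb1 it was made at a log2 fold change of -3.58. DKK2 was also not called at 120 days by limma on log2(FPKM + 1) (-0.42) or log2(FPKM + 0.1) (-1.63), or with replicate number as a block (-2.97). DKK2 was under 1 FPKM in each library, so on log2(FPKM + 1) it could not reach the fold threshold. In Hezuo it was at 1.53 (edgeR, SE 0.67, adjusted p = 0.0743) and at 30 days at -0.96 (edgeR, SE 0.61, adjusted p = 0.296), and neither passed, the first only without Hb1 (1.96). In Landrace it did not pass the filter, and its interaction was -2.23 (edgeR, SE 0.96, adjusted p = 0.184). DKK1 and DKK4, the remaining Dickkopf genes, had at most 5 and 2 counts in a library and were not tested.

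WIF1 (NCBI gene 100512657, chromosome 5, 29450442 to 29543913), which holds ligands in the extracellular matrix, was at 17.5, 18.2 and 12 CPM in Ha1 to Ha3, 2.61, 8.22 and 10.6 in Hb1 to Hb3, 2.08, 3.11 and 3.85 in La1 to La3, and 1.71, 1.55 and 2.31 in Lb1 to Lb3. All Ha libraries were above all La libraries, and all Hb libraries were above all Lb libraries, with Hb1 close to Lb3. At 30 days its log2 fold change was -2.40 (edgeR, SE 0.27, adjusted p = 0.00189), and it was called without each library in turn. At 120 days the value of -1.90 (edgeR, SE 0.53, adjusted p = 0.0749) did not pass except without Hb1 (-2.31), and the interaction was 0.45 (edgeR, SE 0.61, adjusted p = 0.695). With age the values were -1.16 (edgeR, SE 0.47, adjusted p = 0.058) in Hezuo and -0.68 (edgeR, SE 0.34, adjusted p = 0.106) in Landrace, and neither passed with all libraries, while that in Hezuo did without Hb3 (-1.55). At 30 days the sums of Sertoli and of peritubular and stromal markers were higher in La than in Ha without overlap, and those of spermatocyte and spermatogonial markers were lower, as WIF1 was. Of the single genes, 3 of 8 Sertoli and 0 of 10 peritubular and stromal markers were called higher in La by edgeR, and 4 of 8 spermatocyte and 1 of 10 spermatogonial markers lower. Among all genes 3.6% were called higher in La and 4.01% lower. Without each library in turn the calls of 3 Sertoli, 0 spermatocyte and 1 spermatogonial markers were made. Their part in WIF1 was not tested.

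**Figure D3:**
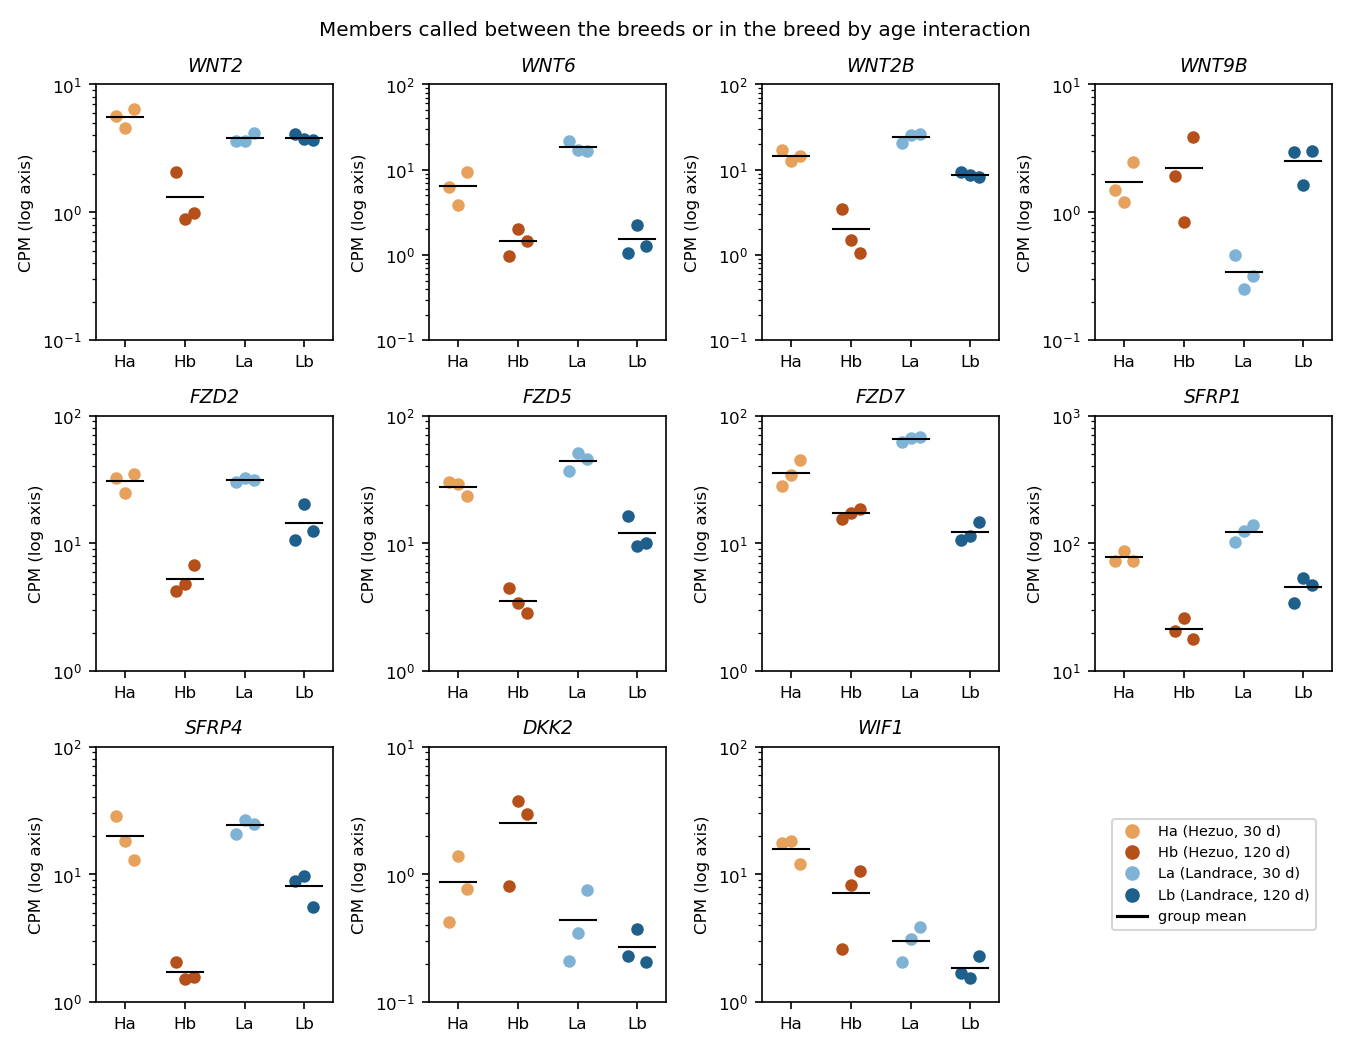
CPM (log axis) in each library of the 11 members called between the breeds at either age or in the interaction, with points coloured by group and a black line at each group mean. Hb is the lowest group for WNT2, WNT2B, FZD2, FZD5, SFRP1 and SFRP4, while WIF1 is higher in Hezuo at both ages.

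Marker genes of the cell types in the testis were summed for each library, as the members are expressed in a mixed tissue. The counts of markers called stand beside all genes, of which 28.2% rose and 23.2% fell in Hezuo. In Landrace 27.5% of all genes rose and 20.1% fell. Spermatid markers (10 of 10 in the table, PRM1 the most abundant) summed to 4.99, 5.54 and 6.48 CPM in Ha1 to Ha3, 6524, 5789 and 8232 in Hb1 to Hb3, 8.87, 7.74 and 4.41 in La1 to La3, and 4193, 3452 and 3154 in Lb1 to Lb3. They were near 0 in each 30-day library and high in each 120-day library, more so in Hezuo. In Hezuo 9 rose and 0 fell of 9 tested, and in Landrace 9 rose and 0 fell of 9. Spermatocyte markers (8 of 8 in the table, PIWIL1 the most abundant) summed to 31.7, 35.6 and 19.9 CPM in Ha1 to Ha3, 783, 676 and 651 in Hb1 to Hb3, 16.1, 14.1 and 12.7 in La1 to La3, and 502, 485 and 494 in Lb1 to Lb3. All 120-day libraries lay above all 30-day libraries, and at each age the Hezuo libraries were above those of Landrace. In Hezuo 8 rose and 0 fell of 8 tested, and in Landrace 8 rose and 0 fell of 8. Spermatogonial markers (11 of 11 in the table, DDX4 the most abundant) summed to 369, 363 and 304 CPM in Ha1 to Ha3, 857, 820.3 and 817 in Hb1 to Hb3, 223, 222 and 231 in La1 to La3, and 701, 638 and 657 in Lb1 to Lb3. The sum was higher at 120 days in both breeds, where DDX4 made up most of it. In Hezuo 3 rose and 6 fell of 11 tested, and in Landrace 4 rose and 5 fell of 11. More single markers thus fell than rose while the sum rose, so this sum is not read as a measure of spermatogonia.

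The somatic lists were higher at 30 days. Of all genes, 51.4% were called in Hezuo (23.2% lower at 120 days) and 47.6% in Landrace (20.1% lower). Peritubular and stromal markers (10 of 10 in the table, COL3A1 the most abundant) summed to 4731, 4586 and 4509 CPM in Ha1 to Ha3, 608, 354 and 255 in Hb1 to Hb3, 6908, 6180.4 and 7613 in La1 to La3, and 3084, 3007 and 2571 in Lb1 to Lb3. Hb was the lowest group, below each library of Lb. In Hezuo 0 rose and 8 fell of 10 tested, and in Landrace 1 rose and 5 fell of 10. At 120 days, 5 of 10 were higher in Lb, namely ACTA2, COL1A1, COL1A2, COL3A1 and PDGFRB, against 2.65% of all genes. Without Hb3, Lb1, Lb2 or Lb3 in turn 2 of the list were called each time. Sertoli markers (8 of 8 in the table, INHA the most abundant) summed to 1269.8, 1209.6 and 1664 CPM in Ha1 to Ha3, 405, 579 and 467 in Hb1 to Hb3, 2642, 3213 and 2914 in La1 to La3, and 605, 753 and 640.5 in Lb1 to Lb3. Landrace was above Hezuo at 30 days without overlap. In Hezuo 0 rose and 4 fell of 8 tested, and in Landrace 0 rose and 4 fell of 8. The share of Sertoli markers called in either direction, 50% in each breed, was near that of all genes. Leydig markers (7 of 7 in the table, CYP17A1 the most abundant) summed to 10086, 9586 and 8750.2 CPM in Ha1 to Ha3, 4066, 331 and 268 in Hb1 to Hb3, 13676, 9326 and 11211 in La1 to La3, and 4922, 7417 and 3086 in Lb1 to Lb3. Hb1 stood apart from Hb2 and Hb3 here. In Hezuo 0 rose and 4 fell of 7 tested, and in Landrace 0 rose and 5 fell of 7.

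The steroid enzyme gene CYP17A1 was at 1444, 21.2 and 19.3 CPM in Hb1 to Hb3 and the hormone gene INSL3 at 2081, 97.4 and 34.8. Hb2 and Hb3 were thus low in Leydig transcripts while Hb1 lay in the range of Lb. Endothelial markers (5 of 5 in the table, VWF the most abundant) summed to 669, 681 and 616 CPM in Ha1 to Ha3, 173, 305 and 186 in Hb1 to Hb3, 795, 627 and 756 in La1 to La3, and 316, 497 and 278 in Lb1 to Lb3. The 30-day libraries were all above the 120-day ones. In Hezuo 0 rose and 5 fell of 5 tested, and in Landrace 0 rose and 3 fell of 5, where 23.2% and 20.1% of all genes fell. Macrophage markers (5 of 5 in the table, CSF1R the most abundant) summed to 124, 101 and 106 CPM in Ha1 to Ha3, 17.5, 20.1 and 10.7 in Hb1 to Hb3, 122, 107 and 115 in La1 to La3, and 21.3, 37.8 and 35.9 in Lb1 to Lb3. These too were all higher at 30 days. In Hezuo 0 rose and 5 fell of 5 tested, and in Landrace 0 rose and 4 fell of 5. Markers of epididymis epithelium (4 of 6 in the table, ADAM28 the most abundant) reached 10.1 CPM at most for a single gene, with their sum at 6.52, 5.94 and 5.24 CPM in Ha1 to Ha3, 0.116, 0.929 and 3.23 in Hb1 to Hb3, 9.21, 3.06 and 5.29 in La1 to La3, and 1.43, 1.51 and 10.5 in Lb1 to Lb3. In Hezuo 0 rose and 0 fell of 1 tested, and in Landrace 0 rose and 1 fell of 2, namely DEFB1, a call not made without La1 (-1.96), La2 (-2.28), La3 (-2.19), Lb1 (-1.55) or Lb2 (-1.92). CRISP1 and LCN5 did not pass the filter in any comparison. Of the calls of marker genes between the ages, 48 of 52 in Hezuo and 42 of 49 in Landrace were made without each library in turn, and the share of all called genes is not given. Not among these were EMCN, ID4, KIT and UTF1 in Hezuo and CDH5, CYP17A1, DEFB1, HSD17B3, ID4, SALL4 and UTF1 in Landrace. In bulk RNA, fewer cells of a type and less RNA per cell cannot be told apart, and the part of the cell mix in the results was not tested.

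Other genes of the pathway were read from 5 lists, 76 genes in all. Ligand processing, agonists and further receptors (27 of 27 in the table) had 2 up and 9 down of 21 in Hezuo and 2 up and 9 down of 22 in Landrace. The intracellular beta-catenin branch (24 of 25 in the table) had 2 up and 9 down of 24 in Hezuo and 2 up and 6 down of 24 in Landrace. Nuclear factors (11 of 12 in the table) had 1 up and 3 down of 11 in Hezuo and 1 up and 1 down of 11 in Landrace. The planar polarity branch (9 of 10 in the table) had 2 up and 2 down of 9 in Hezuo and 3 up and 1 down of 9 in Landrace. Feedback and target genes, some of them also in the other lists, (14 of 14 in the table) had 1 up and 5 down of 13 in Hezuo and 3 up and 4 down of 14 in Landrace. Over all lists 31 of 70 were called in Hezuo and 27 of 71 in Landrace, or 44.3% and 38%, against 51.4% and 47.6% of all genes. Of those, 7 rose and 24 fell in Hezuo, where 28.2% of all genes rose and 23.2% fell, and 10 rose and 17 fell in Landrace, where 27.5% and 20.1% did. The shares called in either direction, 44.3% and 38%, were thus below those of all genes, and the difference was not tested. Decreases outnumbered increases in the lists in both breeds, while increases outnumbered decreases among all genes with TMM, and this was not tested either. Without each library in turn 24 of the calls in Hezuo and 22 of those in Landrace were made, and the share of all called genes is not given. The lists had median log2 fold changes of -0.67 and -0.56.

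Among those that rose, CELSR3, a cadherin of planar polarity, was at 32.7 ± 7.64 CPM in Ha, 434 ± 68.4 in Hb, 21.1 ± 2.73 in La and 338 ± 24.5 in Lb (SD, n = 3), with 3.73 (edgeR, SE 0.23, adjusted p = 1.25e-05) in Hezuo and 4.02 (edgeR, SE 0.13, adjusted p = 8.78e-08) in Landrace. KREMEN1, a receptor for Dickkopf proteins, rose, with a log2 fold change of 2.21 (edgeR, SE 0.18, adjusted p = 4.18e-05) in Hezuo and 1.96 (edgeR, SE 0.15, adjusted p = 7.2e-06) in Landrace. TNKS, a tankyrase that marks axin for breakdown, rose too, at 1.89 (edgeR, SE 0.19, adjusted p = 0.000123) in Hezuo and 1.85 (edgeR, SE 0.10, adjusted p = 1.23e-06) in Landrace. Among those that fell were PTK7, a pseudokinase co-receptor, at 94.7 ± 16.1 CPM in Ha, 14.8 ± 4.65 in Hb, 97.5 ± 3.75 in La and 17.1 ± 1.26 in Lb (SD, n = 3), and AMER1, a scaffold that binds APC, at 81.7 ± 4.28 CPM in Ha, 23 ± 5.62 in Hb, 86.9 ± 5.25 in La and 22.6 ± 4.89 in Lb (SD, n = 3). Their log2 fold changes were -2.68 and -1.83 in Hezuo and -2.50 and -1.93 in Landrace. LGR5, a receptor for R-spondins, was at 5.97 ± 3.05 CPM in Ha, 0.391 ± 0.0176 in Hb, 20.2 ± 3.5 in La and 0.258 ± 0.101 in Lb (SD, n = 3). It was under 1 CPM in each 120-day library, at -3.92 (edgeR, SE 0.52, adjusted p = 0.000435) in Hezuo and -6.25 (edgeR, SE 0.33, adjusted p = 8.94e-07) in Landrace, and its interaction of -2.35 (edgeR, SE 0.65, adjusted p = 0.0501) was called without Ha3 (-2.72) alone. Between the breeds at 30 days, 4 of 70 genes of the lists were called (5.71%), against 7.62% of all genes. LGR5 (1.76), CXXC4 (1.77) and TCF7 (1.12) were higher in La and TNFRSF19 (-1.08) was lower. These log2 values were not called for LGR5 without La2 (1.71) or La3 (1.68), for CXXC4 without Ha1 (1.36), Ha2 (1.76), La1 (2.02), La2 (1.75) or La3 (1.55), and for TNFRSF19 without Ha2 (-0.80) or La3 (-0.97). The interactions of CXXC4 (0.11) and TCF7 (0.02) were not called.

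AXIN2 and LEF1, both commonly read as targets of beta-catenin, moved in opposite directions. AXIN2, a scaffold that limits the pathway, was at 15.3, 17.1 and 20.8 CPM in Ha1 to Ha3, 8.06, 6.97 and 9.83 in Hb1 to Hb3, 31.7, 29.3 and 27.4 in La1 to La3, and 8.33, 10.4 and 12.7 in Lb1 to Lb3. It fell, with a log2 fold change of -1.10 (edgeR, SE 0.22, adjusted p = 0.00295) in Hezuo and -1.47 (edgeR, SE 0.19, adjusted p = 0.000164) in Landrace, without overlap between the ages, and in Hezuo not without Ha3 (-0.97). LEF1, a nuclear partner of beta-catenin, was at 16.9, 17.4 and 14.5 CPM in Ha1 to Ha3, 38, 33.3 and 38.1 in Hb1 to Hb3, 10.01, 9.14 and 9.14 in La1 to La3, and 25.9, 31.6 and 29 in Lb1 to Lb3. It was higher in every 120-day library, at 1.16 (edgeR, SE 0.15, adjusted p = 0.000418) and 1.63 (edgeR, SE 0.15, adjusted p = 2.36e-05). Between the breeds at 120 days neither was called (0.39 and -0.29).

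At 120 days 3 of 67 genes of the lists were called (4.48%), all higher in Landrace, against 3.85% of all genes called and 2.65% called as higher. TNFRSF19, a receptor of the tumour necrosis factor family, was at 21.6, 35.8 and 21.9 CPM in Ha1 to Ha3, 34.5, 13.7 and 18.4 in Hb1 to Hb3, 13.2, 13.7 and 10.8 in La1 to La3, and 90.8, 79.6 and 82.5 in Lb1 to Lb3. Lb was far above every other group, at 1.98 (edgeR, SE 0.31, adjusted p = 0.0183) at 120 days and 2.76 (edgeR, SE 0.14, adjusted p = 6.72e-07) in Landrace, with an interaction of 3.00 (edgeR, SE 0.43, adjusted p = 0.00392). The call at 120 days was not made without Hb3 (1.87), Lb1 (1.93), Lb2 (2.03) or Lb3 (1.99). ADGRA2, a partner of WNT7 signals at vessels, was at 133, 107 and 122 CPM in Ha1 to Ha3, 24.3, 17.1 and 11.7 in Hb1 to Hb3, 136, 127 and 138 in La1 to La3, and 35.2, 52.4 and 54.4 in Lb1 to Lb3. It was lowest in Hb, at -2.77 (edgeR, SE 0.27, adjusted p = 9.86e-05) in Hezuo and 1.47 (edgeR, SE 0.29, adjusted p = 0.0332) at 120 days, and its interaction was called too, at 1.27 (edgeR, SE 0.32, adjusted p = 0.0395). Without Hb3 (1.25), Lb1 (1.65), Lb2 (1.41) or Lb3 (1.34) the call at 120 days was not made, nor was that of the interaction without Ha1 (1.25), Ha2 (1.36), Ha3 (1.31), La1 (1.29), La2 (1.28), La3 (1.35), Lb2 (1.20) or Lb3 (1.18). APCDD1, a membrane protein that inhibits the pathway, was at 7.29, 8.96 and 8.66 CPM in Ha1 to Ha3, 4.99, 3.44 and 7.39 in Hb1 to Hb3, 8.61, 9.8 and 11.09 in La1 to La3, and 10.3, 14.3 and 16 in Lb1 to Lb3, with 1.41 (edgeR, SE 0.33, adjusted p = 0.0493) at 120 days, where no library of Hb reached Lb. Leaving out any 1 library ended this call, at Hb1 (1.36), Hb2 (1.19), Hb3 (1.74), Lb1 (1.58), Lb2 (1.38) or Lb3 (1.26), and its interaction was 1.12 (edgeR, SE 0.38, adjusted p = 0.0989), called without Hb3 (1.48) alone.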

How the data were processed

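RNA of testis was measured in 12 libraries of 4 groups, and every column could be assigned to a group from its name. Libraries were depleted of ribosomal RNA and strand-specific. The authors filtered reads with fastp 0.18.0, removed ribosomal reads with Bowtie2 2.2.8, aligned to Sscrofa11.1 with HISAT2 2.1.0 and assembled transcripts with StringTie 1.3.4. The estimated counts, as deposited by the authors, are not normalized, and their counting tool is not stated. Of all count values 31.6% were not whole (tolerance 1e-06), and of the member values 13.8%, in 7 members. The FPKM values, as deposited, were scaled by the authors for transcript length and mapped fragments and rounded. Library totals ran from 17165519 to 23758931, which limits the precision of low genes. Positions came from RefSeq, in which each of the 41 symbols was found.

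Counts were rounded and compared on the whole table in edgeR 4.0.16 with limma 3.58.1 in R 4.3.3 (filterByExpr with a minimum count of 10, TMM, glmQLFTest, Benjamini-Hochberg adjustment over all genes tested). Each pair of groups was fitted on its 6 libraries and the interaction on 12, and SE was the absolute log2 fold change over the square root of F. Alternatives were DESeq2 1.42.0, limma on log2(FPKM + 1) and log2(FPKM + 0.1) with a mean FPKM of at least 0.1 or no filter, RLE factors, library size alone, no filter, all 12 libraries in 1 fit, a stricter filter (10 counts or more in each library of a group), replicate number as a block, and leaving out each library. Tables were made with Python 3.11.15, numpy 2.4.6, pandas 2.3.3, scipy 1.17.1 and matplotlib 3.10.9. The lncRNA transcripts were not analysed here.

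Members and lists were chosen with earlier results of these data known. Values in every library were given for members called between the breeds or in the interaction, for SFRP1 and WNT2B, and for the 4 most abundant by mean FPKM. Members called between the ages alone were given by mean and SD, and the others by range. Of the 5 pathway lists (ligand processing with agonists and further receptors, the intracellular beta-catenin branch, nuclear factors, the planar polarity branch, and feedback and target genes), the 3 rising and 3 falling genes of smallest adjusted p in each age comparison were named, with those called at 120 days, AXIN2 and LEF1. TCF7, CXXC4 and the single marker genes were named after their values were seen. CSNK1E, TLE1, CELSR1, LCN8 and PAX8 of the lists were not found in the table.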

Additional observations from a re-analysis of the deposited data

Results flagged for a closer look

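The change with age differed between the breeds for 4 members, by a test of the interaction in edgeR over all 12 libraries. The value, as the log2 change in Landrace less that in Hezuo, was 1.44 for FZD2 and 1.94 for SFRP4, which had the larger decrease in Hezuo, and 2.09 for WNT2, which fell in Hezuo alone (0.03 in Landrace). It was -1.36 for FZD7, which had the larger decrease in Landrace. The call was not made for FZD2 without Ha1, Ha3, La1, La2, La3 or Lb2, with values from 1.11 to 1.5, or for SFRP4 without La1 (1.84). It was also not made for FZD2 with replicate number as a block (1.44), for SFRP4 by limma on log2(FPKM + 1) without a filter (1.07), or for FZD7 (-0.99) and WNT2 (0.55) by limma on log2(FPKM + 1) with or without a filter. No explanation for these differences was tested.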

How the results depend on the processing

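No called member reversed its direction under an alternative. Of the members edgeR called, 12 of 21 in Hezuo, 11 of 19 in Landrace, 2 of 3 at 30 days, 0 of 6 at 120 days and 0 of 4 in the interaction were called under every alternative, DESeq2 and limma included. Every edgeR alternative called 18, 15, 3, 0 and 2 of them, and every fit without 1 library 18, 16, 3, 0 and 2. The share of all called genes that kept their call in these ways is not given here, so the counts are not compared with it. The first counts include limma on log2(FPKM + 1), which cannot call a gene between groups when it is under 1 FPKM in each library. Between the ages the alternatives called 16 to 25 members in Hezuo (6660 to 9809 of all genes) and 14 to 22 in Landrace (5594 to 8733). Leaving out 1 library gave 19 to 22 (8210 to 9015) and 16 to 20 (7843 to 8126) there, and 3 to 4 at 30 days (831 to 1466).

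At 30 days DESeq2 called 5 members (1323 of all genes) against 3 (1192), while limma on log2(FPKM + 1) called 2 (505), and 2 without a filter (486). At 120 days, against 6 (628 of all genes), DESeq2 called 11 (1224), all 12 libraries in 1 fit 10 (1258), limma on log2(FPKM + 1) 3 (496) and the same without a filter 1 (364). There 0 to 8 were called without 1 library, and 0 without Hb3, Lb1 or Lb2. For the interaction, against 4 (890), DESeq2 called 8 (1378), limma on log2(FPKM + 0.1) and library size alone 7 each (1369 and 1081), and limma on log2(FPKM + 1) without a filter 2 (842). It was called for 2 members without La1 (577) and 8 without Hb1 (987). The cause was not tested.

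Replicate number as a block called 22, 18, 3 and 5 members in Hezuo, in Landrace, at 30 days and in the interaction (8430, 7770, 1030 and 672 of all genes), and 0 at 120 days (154 of all genes). With that block 16 members were at an unadjusted p under 0.05 at 120 days, and the share of all genes at that p is not given. Replicate numbers do not pair the animals.

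WNT1, WNT7B, DKK1 and DKK4 were at 5 counts or fewer in each library.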

Other observations

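Some ligand genes lie side by side on a chromosome in Sscrofa11.1. WNT9A and WNT3A are 25631 bases apart on chromosome 2, WNT3 and WNT9B 27848 bases apart on chromosome 12, and WNT6 and WNT10A 7844 bases apart on chromosome 15. In mean FPKM over the 12 libraries the pairs were at 2.43 and 0.24, 0.49 and 0.24, and 3.62 and 0.12, in the order named. The log2 change with age, in the same order, was -0.30 and 1.82, 0.50 and 2.87, and -3.57 and 0.79 in Landrace. In Hezuo it was -0.30 and 2.33 for the first pair and -0.02 and 0.34 for the second, in which neither gene was called, and -2.14 for WNT6, where WNT10A did not pass the filter. WNT9A, WNT3 and WNT10A were not called between the ages with all libraries, and no difference within a pair was tested.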
